A study of Mus musculus with 8 samples.

Results

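The cells described here were the 300 with the highest joint level of Fezf2, Bcl11b, Ldb2 and Lmo1 among single cells sorted from the E15.5 mouse cortex. They were chosen from 2225 eligible cells, which are those with at most 25000 UMIs (tags that count single captured RNA molecules) and under 5 Reln UMIs per 10000. In each eligible cell the 4 genes were expressed as log(1 + UMIs per 10000), turned into z-scores and averaged, and the 300 highest averages were taken, which made up 10% of the 3000 cells in all and 13.5% of the eligible cells. The other 1925 eligible cells were the comparison, with the 4 genes left out. The levels of these 4 genes chose the cells and are given below only as a description.

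Layer 5 of the cerebral cortex holds the large pyramidal neurons that send axons out of the cortex to the brainstem and spinal cord. Fezf2 is a zinc finger transcription factor needed for the formation of these subcerebral projection neurons, and Bcl11b (also called Ctip2) is a zinc finger factor that acts with it and is needed for the outgrowth of their axons. Neurons of layer 6, which project to the thalamus, are marked by Tbr1, Tle4 and Foxp2. In the embryo these programmes overlap and become separate as the neurons mature, so a single gene seldom names a layer.

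All cells came from Tg(Ebf2-EGFP)FB58Gsat embryos at E15.5, in which the Ebf2 promoter drives EGFP, and were sorted by FACS from dissociated cerebral cortex as EGFP-positive. About 8 embryos of 2 timed-pregnant mice were pooled, and about 3000 cells entered the 10x Genomics Chromium protocol. The 8 labelled samples form 1 group and share 1 matrix that does not tie cells to samples, so the data were 1 library without replicates and no test was made. Intervals are at 95% and take in counting error alone. EGFP transcripts were not analysed here.

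The selected cells had 10745 to 24887 UMIs with a median of 16125, and the remaining cells a median of 14579. The median number of genes was 4042 against 3938, and the median mitochondrial share was 2.85% against 2.94%. None of the selected cells had a doublet score among the highest 2.3% of all cells, against 7 of the remaining cells. Xist and a Y-linked gene were detected together in 14.7% of the selected cells (exact interval 10.9 to 19.2%) and in 17.9% of the remaining cells (16.2 to 19.7%). Reln-high cells, 288 cells with at least 5 Reln UMIs per 10000 and a median of 17198 UMIs, are given throughout as the level in cells that should lack deep-layer genes.

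Fezf2 (ENSMUSG00000021743, minus strand of chromosome 14 from 12342094 to 12348189 in GRCm38) had 722 CPM (its UMIs per 1000000 over all cells of a group; interval 698 to 746) in the selected cells, 313 in the remaining cells and 31.9 in Reln-high cells. Per cell it ran from 0 through a median of 6.68 to 19.7 UMIs per 10000, while the median of the remaining cells was 2.48. Bcl11b (ENSMUSG00000048251, minus strand of chromosome 12 from 107910403 to 108003602) had 834 CPM against 443 and 92.8. Its levels per cell ran from 1.40 through 8.36 to 21.8 UMIs per 10000, against a median of 4.01 in the remaining cells. Both factors were thus well above their background in most remaining cells too, and the ranges of the groups overlapped.

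Ldb2 (ENSMUSG00000039706, minus strand of chromosome 5 from 44472132 to 44799680) encodes a LIM domain-binding cofactor, and Lmo1 (ENSMUSG00000036111, minus strand of chromosome 7 from 109138572 to 109175207) a LIM-only protein, so both work with LIM-type transcription factors. Ldb2 had 196 CPM against 57.6 in the remaining and 8.87 in Reln-high cells, and Lmo1 215 CPM against 61.3 and 10.9. Their median levels were 1.77 and 1.94 UMIs per 10000, while 53.5% of the remaining cells had no Ldb2 UMI and 55.2% no Lmo1 UMI. Of the selected cells 1 had no Fezf2 UMI, 12 no Ldb2 UMI and 14 no Lmo1 UMI, so 273 (91%) had all 4 genes, as had 19.6% of the remaining and 1.74% of the Reln-high cells.

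No single gene defined the set. Of the 300 eligible cells highest for Fezf2 alone 133 were selected, and the same number for Bcl11b was 127, for Ldb2 144 and for Lmo1 151. The score also had no gap at its limit, since the cell ranked last had 0.796 and the next one outside 0.795. The 10 cells just inside had medians of 6.06 Fezf2 and 5.79 Bcl11b UMIs per 10000, and the 10 just outside 4.43 and 8.0. In rank order, groups of 300 cells had 722, 540, 497, 362, 304, 176 and 86.6 CPM of Fezf2, and the last 125 cells 34.5. The selected cells were the upper end of a continuous range.

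**Figure D1:**
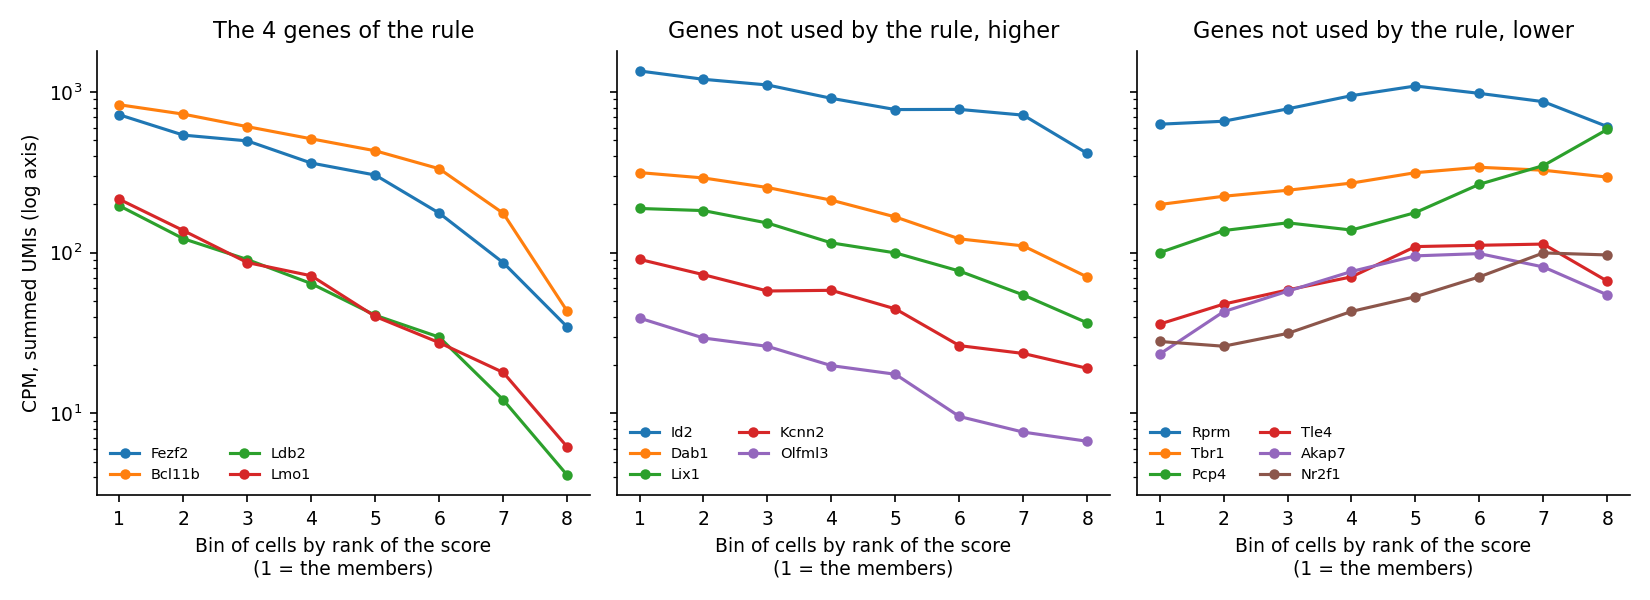
Levels along the score, in CPM of summed UMIs on a log axis, for 7 rank bins of 300 cells and a last bin of 125; bin 1 is the selected cells. The left panel shows the 4 genes that made the score, which fall by construction, the middle panel 5 genes that were not used and were higher in the selected cells (Lix1 from 188 to 36.6), and the right panel 6 that were lower (Tle4 from 35.9 in bin 1 to 113 in bin 7).

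How far each of the 4 genes went with the others was read from cells chosen by 3 of them, with the level of the gene left out. The choice was made with earlier results of these data known, so these values describe the genes and are not an independent check. Cells chosen without Fezf2 had 574 CPM of Fezf2 against 338 in the rest, a log2 ratio of 0.76 (interval 0.70 to 0.82). Bcl11b had 729 against 461 (log2 ratio 0.66, 0.61 to 0.71), Ldb2 125 against 69.4 (0.85, 0.72 to 0.98) and Lmo1 127 against 76.1 (0.74, 0.61 to 0.87). All 4 left-out genes were therefore 1.58-fold to 1.80-fold higher, less than the levels above that chose the cells, and 212 to 257 of the 300 cells stayed the same. When the choice and the values came from separate random portions of the UMIs, Fezf2 had a log2 ratio of 0.66 and Bcl11b 0.57.

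The name of layer 5 was checked with 20 other subcerebral genes, of which 10 had the 300 UMIs over all eligible cells, with no cell holding over 20% of them, that a gene needed to be compared. Of these 2 were at least 1.5-fold higher in the selected cells, 2 were at least 1.5-fold lower and 6 lay between, with a median log2 ratio of 0.29 against -0.05 over all 8028 genes compared. Across all genes 0.81% were at least 1.5-fold higher and 6.09% at least 1.5-fold lower. With so low a share of higher genes, a list with none higher is not read as a result below. Lix1 had 188 CPM against 110 (log2 ratio 0.78, interval 0.67 to 0.88), and Tox, an HMG-box factor, 126 against 81.2 (0.63). Pcp4, a calmodulin-binding protein, had 100 CPM against 227 (-1.18), and the potassium channel Kcnk2 18.3 against 36.4 (-0.99). In a comparison chosen after seeing the data, against the 4 largest clusters alone (described below), 1 gene was higher and 3 lower, with Tox at 0.46.

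Of the layer 5 genes between the limits, 4 had intervals above 0. Crym, a thyroid hormone-binding protein, had 287 CPM against 234 (log2 ratio 0.29), S100a10 137 against 109 (0.33), the cadherin Cdh13 358 against 304 (0.24), and Pou3f1, a POU factor, 20.7 against 15.2 (0.44). Crim1 was at -0.48 with 19.5 CPM against 27.2. Etv1, a classical layer 5 factor, was too low to compare, with 0.812 CPM against 3.37, and Rbp4 had 2.43 against 4.06. These genes do not settle a layer 5 name, and the cells are called Fezf2- and Bcl11b-high below.

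The layer 6 corticothalamic genes stood lower. All 14 were compared, 6 were at least 1.5-fold lower, none was at least 1.5-fold higher, and the median log2 ratio was -0.54. Tle4, a corepressor, had 35.9 CPM in the selected cells, 82.9 in the remaining and 38.7 in Reln-high cells, a log2 ratio of -1.21 (interval -1.43 to -0.99). With every cell thinned to an equal depth a Tle4 UMI was found in 28.7% of the selected cells and 47.3% of the remaining. Against the 4 largest clusters 8 of the 14 were lower. Foxp2 had 5.07 CPM against 18.0 (-1.83), near the 3.63 of Reln-high cells. Ntsr1, the neurotensin receptor, had 6.29 against 16.8 (-1.41), and Akap7 23.3 against 73.3 (-1.65).

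Tbr1, the T-box factor of layer 6, had 199 CPM against 286 (log2 ratio -0.52, and -0.60, past 1.5-fold, against the 4 largest clusters) and was found in 82.3% of the selected cells at equal depth against 85.1% of the remaining. Reln-high cells had 520 CPM of Tbr1, so its share cannot be read as deep-layer only. Rprm had 631 CPM against 866 (-0.46). Sox5, a SOX factor that controls the order in which deep-layer neurons appear, was at 345 CPM against 261 (0.40, within 1.5-fold, and 0.21 against the 4 largest clusters).

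The upper-layer and callosal genes had 15 members compared, of which 6 were lower, 1 was higher and the median was -0.48. Ptn, a secreted growth factor, had 45.9 against 126 (-1.45), Cux1 11.4 against 24.9 (-1.13) and the netrin receptor Unc5d 4.46 against 10.8 (-1.28). Mdga1, an adhesion molecule of superficial neurons, went the other way with 25.6 against 15.1 (0.76), while Lmo4 was at 122 against 119 (0.04).

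Markers of other cells were checked next. The 6 subplate genes compared had a median log2 ratio of -0.87 with 4 lower, among them Nxph4 at 18.5 CPM against 52.7 (-1.51) and Kcnab1 at 4.46 against 27.1 (-2.60). Of the list of 13, 7 did not meet the requirements for comparison, and 6 of these (Ctgf, Cplx3, Moxd1, Ddc, Inpp4b and Cdh18) had no UMI in the selected cells. No level in the remaining cells is set beside these, so the lack of UMIs is not read as a difference. All 5 Cajal-Retzius genes compared were lower, with a median of -1.69, which was -0.56 with 2 of 5 lower against the 4 largest clusters. Of the 9 genes of newborn neurons and intermediate progenitors 5 were lower, none higher and 4 between, with Neurod1 at 14.6 CPM against 94.8. Against the 4 largest clusters 3 of the 9 were lower. Of 3 radial glia and cell cycle genes compared, Slc1a3 was higher, Fabp7 was lower (-0.12 against the 4 largest clusters) and the median was 0.04. Mki67, the proliferation marker, was not compared and had no UMI in the selected cells.

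Interneuron genes were near 0, with Npy the only one compared and Gad1 and Gad2 at 0.203 and 0.406 CPM. Of 20 genes of microglia, vessels, blood, oligodendrocyte precursors and meninges none met both requirements for comparison, the 300 UMIs and the limit of 20% in 1 cell. Of the 20, 8 (C1qa, Csf1r, Cx3cr1, Flt1, Kdr, Olig1, Olig2 and Pdgfra) had no UMI in the selected cells. The 20 genes summed to 0 to 4.91 UMIs per 10000 per selected cell, and to 0 to 8533 in the remaining cells. Haemoglobin genes had 44.0 CPM against 595, and 41.3 in Reln-high cells. A single remaining cell held 16104 haemoglobin UMIs, most of those in the remaining cells, so the difference lay largely in 1 cell. The part of these RNAs in the results was not tested.

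**Figure D2:**
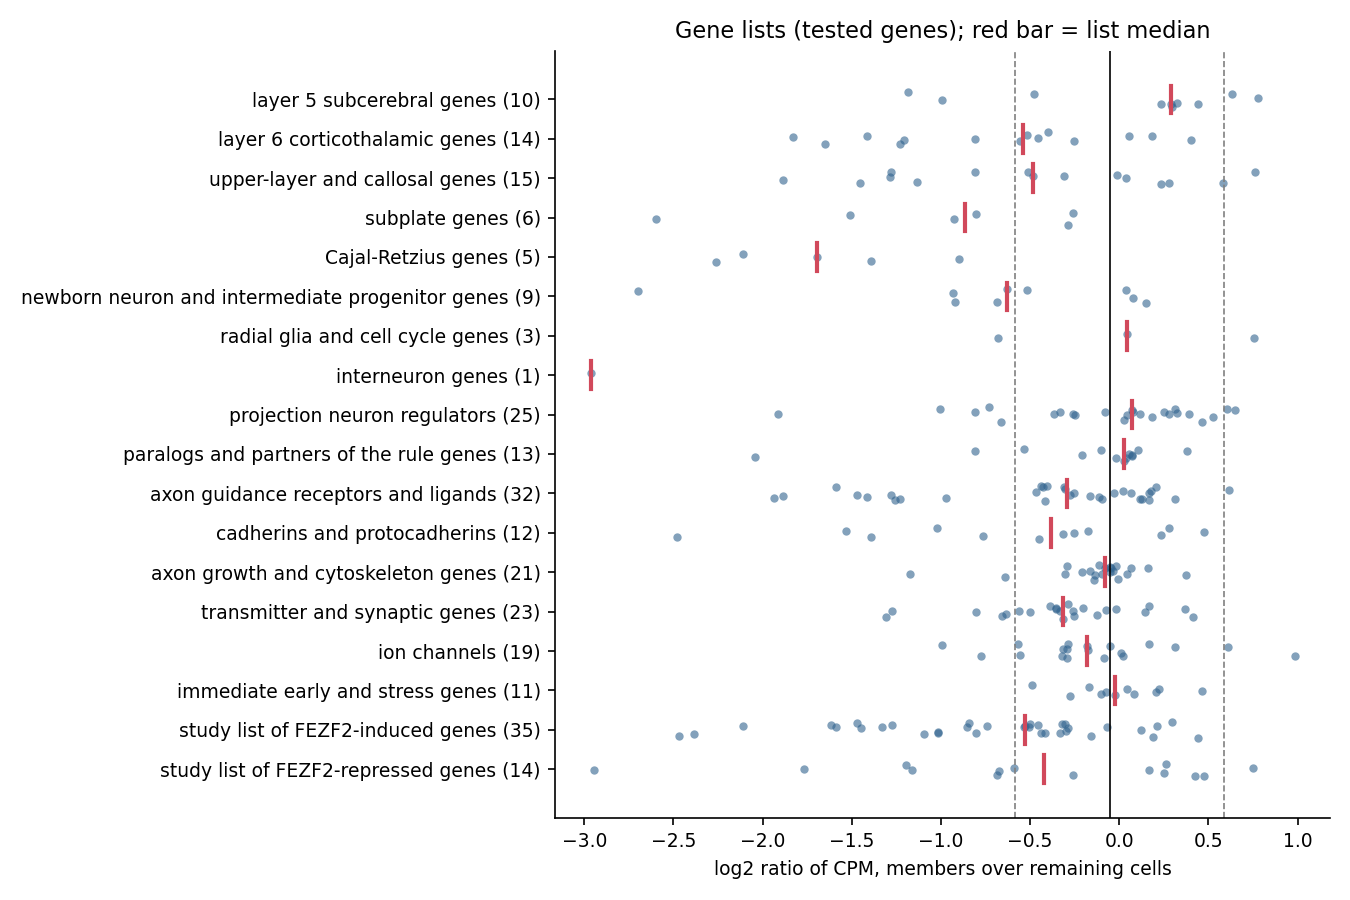
The log2 ratio of CPM in the selected over the remaining cells for each compared gene of the lists (points), with the number compared in brackets. Red bars are list medians, dashed lines mark 1.5-fold and the solid line the median of all genes at -0.05; the layer 5 list has its median at 0.29, and the layer 6, upper-layer and subplate lists at -0.54, -0.48 and -0.87.

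Over all genes compared 65 were at least 1.5-fold higher in the Fezf2- and Bcl11b-high cells and 489 at least 1.5-fold lower, and the highest ratio was 2.20-fold. Olfml3, a secreted olfactomedin-domain protein, had 39.2 CPM (interval 33.8 to 45.1) against 17.8 (16.3 to 19.4) and a log2 ratio of 1.14 (0.89 to 1.38). At equal depth 26.7% of the selected, 14.6% of the remaining and 3.82% of the Reln-high cells had an Olfml3 UMI. Fosl2, an AP-1 transcription factor, had 42.8 CPM against 19.97 (1.10). Chst8, a sulfotransferase that acts on N-acetylgalactosamine, had 64.1 against 30.4 (1.08), with a UMI in 43.7% and 23.6% of the cells.

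Kcnn2, which encodes the small-conductance calcium-activated potassium channel SK2, had 90.9 CPM against 46.0 (log2 ratio 0.98, interval 0.83 to 1.14). At equal depth it was found in 56.3% of the selected, 32.2% of the remaining and 6.25% of the Reln-high cells. Another potassium channel, Kcna1, had 30.0 against 19.7 (0.61). Of the 19 ion channel genes compared these 2 were higher, Kcnk2 and the calcium channel subunit Cacna2d1 (29.0 against 49.6, -0.77) were lower, and the median was -0.18. Against the 4 largest clusters Kcna1 was at 0.49 and Cacna2d1 at -0.52, both within 1.5-fold.

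Ucp2, an uncoupling protein of the inner mitochondrial membrane, had 56.6 CPM against 29.2 (log2 ratio 0.95), Oma1, a mitochondrial protease, 29.8 against 15.6 (0.94), and Slc16a1, a carrier of lactate and other monocarboxylates, 27.8 against 14.996 (0.89). The 20 highest also held Rspo3, a secreted enhancer of Wnt signalling (157 against 88.5, 0.83), and Mmp14, a membrane-bound matrix metalloproteinase (28.2 against 15.3, 0.88). Rspo3 had 213 CPM in Reln-high cells, above the selected cells.

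The imprinted gene Nap1l5 had 182 CPM against 100 (log2 ratio 0.86) and the kinesin Kif26a 60.3 against 33.7 (0.84). Zfp521, a zinc finger factor, had 59.7 against 35.4 (0.75), Gabra4, a GABA-A receptor subunit, 14.4 against 8.52 (0.76), and Slc1a3, a glutamate transporter of radial glia and astrocytes, 19.1 against 11.3 (0.75). The rest of the 20 highest were Sertad3 (1.01), Vrk2 (0.91), Adamtsl1 (0.85), Lix1, Mdga1 and Ppp1r16b (0.76). All 20 had their highest level in the first rank bin, which the choice of genes favours, and 15 had their lowest in the last. Olfml3 had 39.2, 29.4, 26.1, 19.8, 17.5, 9.55, 7.63 and 6.69 CPM along the bins.

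**Figure D3:**
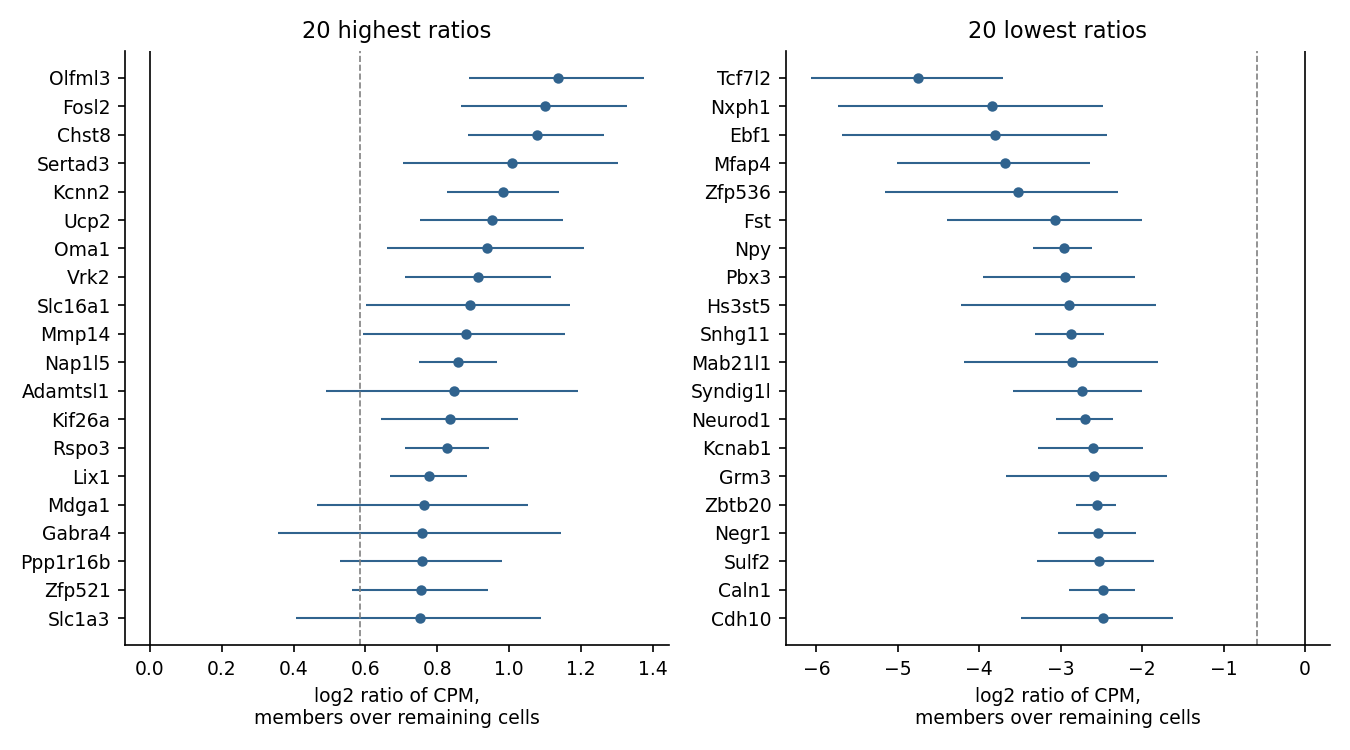
The 20 highest (left) and 20 lowest (right) log2 ratios of CPM in the selected over the remaining cells, with 95% counting intervals; dashed lines mark 1.5-fold, and the horizontal scales differ. The highest ratios lie between 0.75 and 1.14 and the lowest between -4.75 and -2.48.

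The genes with the lowest ratios had few UMIs in the selected cells and met the minimum through the remaining cells, for instance Tcf7l2 with 7 UMIs against 1123. Tcf7l2, a transcription factor of the Wnt pathway, had 1.42 CPM against 38.3, a 26.9-fold difference (log2 ratio -4.75, interval -6.07 to -3.70). At equal depth only 3.90% of the remaining cells had a Tcf7l2 UMI, and the highest cell had 47.2 UMIs per 10000. The transcription factors Ebf1 (0.812 against 11.3, -3.80), Zfp536 (1.01 against 11.7, -3.53), Pbx3 (2.23 against 17.2, -2.94) and Neurod1 (-2.70) were also in this set. Zbtb20, a zinc finger transcriptional repressor, had 28.6 CPM against 169 (-2.56), with a UMI in 17.3% of the selected, 29.9% of the remaining and 78.1% of the Reln-high cells.

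Npy, neuropeptide Y, had 13.6 CPM against 106 (log2 ratio -2.97), and Nxph1, a ligand of neurexins, 0.812 against 11.7 (-3.85). Fst, the activin-binding follistatin, had 1.42 against 11.9 (-3.07). Within the largest cluster Fst was at 0.56, but with a counting interval from -2.22 to 3.12, so its direction there cannot be read. Negr1, an adhesion molecule, had 7.91 against 46.0 (-2.54), Grm3, a metabotropic glutamate receptor, 2.03 against 12.3 (-2.60), and the cadherin Cdh10 2.23 against 12.4 (-2.48). Caln1, a neuronal calcium-binding protein, had 10.96 against 61.2 (-2.48) and a UMI in 8% of the selected against 32.2% of the remaining cells. The others were Mfap4 (-3.69), Hs3st5 (-2.90), Snhg11 (-2.88, but 0.08 within the largest cluster), Mab21l1 (-2.87), Syndig1l (-2.73), Kcnab1 and Sulf2 (-2.53).

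The 4 smallest clusters held none of the selected cells. Against the 4 largest clusters alone, where 40 genes (0.526%) were higher and 310 (4.08%) lower, Tcf7l2 was at -0.95, Nxph1 at -1.01, Snhg11 at -0.78, Neurod1 at -1.38, Zbtb20 at -1.29 and Pbx3 at -0.30, within 1.5-fold. Npy (-2.82), Caln1 (-2.58), Kcnab1 (-2.77), Grm3 (-2.74), Hs3st5 (-3.03), Syndig1l (-2.82) and Cdh10 (-2.49) moved little in that setting, while Fst was at -1.25, Mab21l1 at -1.11, Ebf1 at -2.17, Mfap4 at -2.67, Negr1 at -1.78 and Zfp536 at -2.40. Of the 20 highest genes all 20, and of the 20 lowest 19, were still past 1.5-fold. Within the largest cluster none of the 20 lowest had enough UMIs to be compared by the same minimum. Without it Npy was at -0.06 there (counting interval -0.58 to 0.45), Zbtb20 at -0.42 (-0.86 to -0.0049), Neurod1 at -0.66 (-1.25 to -0.09) and Ebf1 at -2.03 (-4.40 to -0.31), while the interval of Cdh10 ran from -2.21 to 1.87. The intervals of Npy and Zbtb20 did not reach their log2 ratios against all remaining cells, -2.97 and -2.56.

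Among 25 regulators of projection neurons compared, most differed little, with 2 higher, 5 lower, 18 between and a median log2 ratio of 0.07. Foxp1, a forkhead factor, had 128 CPM against 81.8 (0.65, interval 0.52 to 0.77), and Id2, an inhibitor of bHLH factors, 1354 against 890 (0.60). Against the 4 largest clusters Foxp1 was at 0.56 and Id2 at 0.44, so none of the list was higher and only Nr2f1 was lower. Tcf4, a class I bHLH factor, was at 553 against 400 (0.47), and Neurod6 at 1656 against 1264 (0.39).

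The patterning factors Nr2f1 and Nr2f2, also called Coup-TF1 and Coup-TF2, were the lower regulators with the largest differences. Nr2f1, which limits the production of subcerebral neurons in sensory areas, had 28.0 CPM against 56.2 (interval of the log2 ratio -1.27 to -0.75), and its log2 ratio was -0.81 against the 4 largest clusters. Nr2f2 had 7.51 against 28.3 (-1.92) but 460 in Reln-high cells, and was at -0.58 against the 4 largest clusters. Lhx2 had 55.4 against 96.9 (-0.81), Emx1 49.1 against 81.4 (-0.73) and Emx2 16.6 against 26.3 (-0.66), and Emx2 turned to 0.06 against the 4 largest clusters. Bcl11a, the paralog of Bcl11b, was level at 376 against 369 (0.03).

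The cofactors of LIM proteins showed no shift as a set. Of 13 paralogs and partners of the 4 genes none was higher and Lhx2 and Lhx9 were lower, with a median of 0.03. Over all genes 0.81% were higher and 6.09% lower. Ldb1, the paralog of Ldb2, had 57.6 CPM against 54.7 (0.07), and Lmo4 is given above. Ssbp2, a single-stranded DNA-binding protein that stabilises LDB complexes, was at 449 against 345 (0.38), while its relative Ssbp3 was at 212 against 245 (-0.21). Fezf1, the paralog of Fezf2, was nearly absent at 0.203 against 5.42.

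Of 32 axon guidance genes compared 9 were at least 1.5-fold lower and 1 higher, and the median was -0.29, beside 489 lower, 65 higher and a median of -0.05 over all genes. The higher gene was Robo1, a Slit receptor, with 82.6 CPM against 53.9 (log2 ratio 0.62, and 0.56 against the 4 largest clusters), while its relative Robo2 had 9.54 against 22.8 (-1.26). The semaphorin receptor subunits Plxna4 (3.85 against 14.8, -1.94) and Nrp2 (15.2 against 42.2, -1.47) and the ephrin receptors Epha3 (8.32 against 30.7, -1.89), Epha7 (18.7 against 56.2, -1.59) and Epha4 (36.1 against 70.8, -0.97) were lower. Ephb1 (82.2 against 75.1, 0.13), Epha5 (251 against 240, 0.07) and Nrp1 (128 against 130, -0.03) were level.

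The cadherin list showed 5 of 12 lower and none higher, with a median of -0.38. Pcdh10 had 9.74 CPM against 28.2 (log2 ratio -1.53) and Pcdh7 9.33 against 24.5 (-1.39), while Pcdh8 was at 81.8 against 58.9 (0.47). Genes of the axonal cytoskeleton hardly differed, with 19 of 21 within 1.5-fold and a median of -0.08, for instance Tubb3 at 0.07 and Gap43 at -0.08, and all 21 within it against the 4 largest clusters. Transmitter and synaptic genes had a median of -0.31 with 5 of 23 lower, among them Syt1 at 41.2 against 63.9 (-0.63), and 2 of 23, without Syt1, were lower against the 4 largest clusters. Slc17a7, the vesicular glutamate transporter VGLUT1, was at 31.0 against 40.7 (-0.39) and Snap25 at 303 against 235 (0.37). None of 11 immediate early and stress genes passed 1.5-fold, and their median was -0.02, with 5 intervals above 0 and 4 below. Fosl2, given above, was not on that list.

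The study took genes known to be induced or repressed by FEZF2 from earlier work and sorted them by its own gene clusters, which drew on these cells, so the lists are not independent evidence. Bcl11b and Reln were left off the induced list and Fezf2 off the repressed list, since they had set the choice. Bcl11b, which the study lists as induced, had a log2 ratio of 0.66 in cells chosen without it, as given above. None of the 35 other induced genes compared was at least 1.5-fold higher in the selected cells, beside 0.81% of all genes. With a share that low, the lack of higher genes is not read as a result about them. Of the 35, 16 were lower, beside 6.09% of all genes, and the median log2 ratio was -0.53. Rgs16, a regulator of G protein signalling, had 4.87 CPM against 27.0 (-2.47), Wnt7b 98.4 against 199 (-1.02) and Nxph3 33.3 against 80.5 (-1.27). Crym (0.29), Sez6 (359 against 310, 0.21) and Hivep2 (163 against 142, 0.19) were on the other side of 0. Of 14 repressed genes Dab1, the adaptor of Reelin signalling, was higher with 315 against 187 (0.75) and 7 were lower, with a median of -0.42. Tshz2 of the induced list turned from -1.45 to 0.62 against the 4 largest clusters, where the induced list had 1 higher and 13 lower and the repressed list 1 higher and 1 lower.

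Clusters of the eligible cells were built without the 4 genes, so the place of the selected cells in them was not set by the choice directly. Of 8 K-means clusters, the largest, with 698 cells, held 229 of them (76.3%, exact interval 71.1 to 81.0%), which was 32.8% of that cluster. Its leading genes included Nr4a1 and Kif26a, beside Fezf2 and Ldb2. The third cluster, led by Rnd2 and Nrp1, held 47 (15.7%), the second, led by Akap7, Kitl and Wnt7b, 18 (6%), and the fourth, led by Prss12 and Kcnab1, 6 (2%). The other 4 clusters, led by Snhg11, by Zbtb20 and Neurod1, by Fabp7 and Dbi, and by Ube2c and Hmgb2, held 0 of 300, which allows a share of up to 1.22%. In that order they had 119, 110, 11 and 8 cells. In the last 2 the selected cells could make up to 28.5% and 36.9% of the cluster, above their 13.5% of all eligible cells. Their absence from those 2 is therefore not read as a result. With Leiden clustering, which gave 17 clusters, the commonest cluster held 27.3% of the selected cells, and 3 clusters together held 70%.

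**Figure D4:**
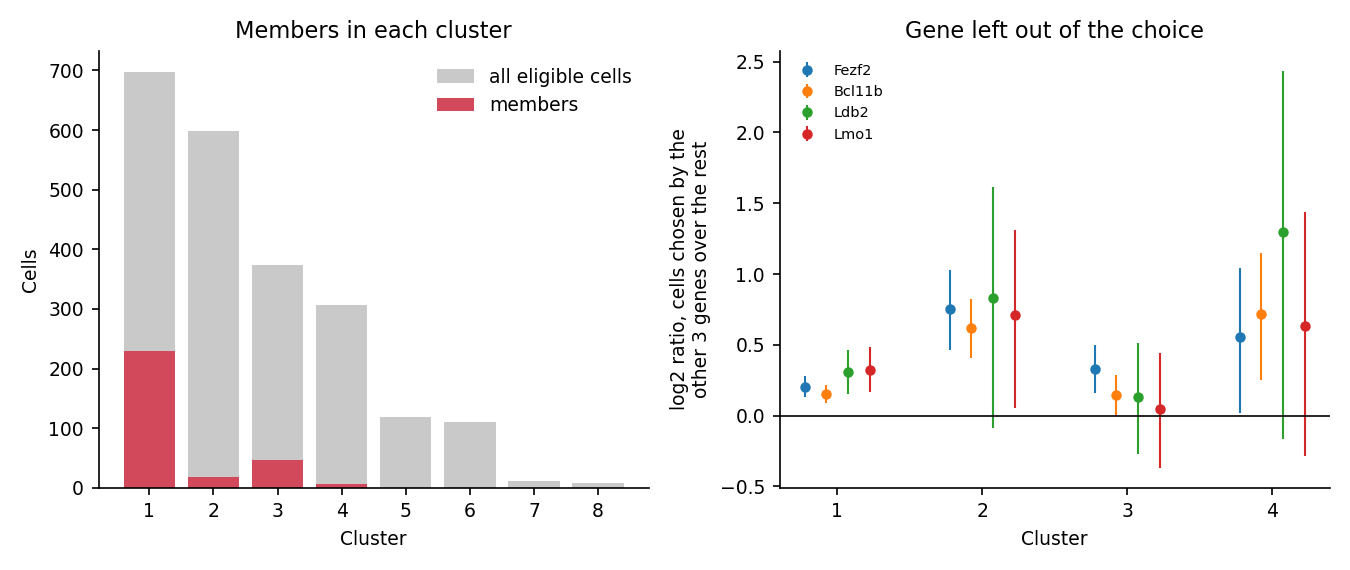
Left, cells per K-means cluster (grey) and the selected cells among them (red), 229 of which lie in cluster 1 and none in clusters 5 to 8. Right, the log2 ratio with its 95% counting interval of each gene left out of the choice, in cells chosen by the other 3 genes over the rest of the same cluster; in cluster 1 it lies between 0.15 and 0.32.

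Within the largest cluster the selected cells differed little from their neighbours. The 229 selected and the 469 other cells of that cluster gave 4587 genes with enough UMIs, of which 3 (0.0654%) were at least 1.5-fold higher, 11 (0.24%) at least 1.5-fold lower, and the median log2 ratio was 0.01. None of the 20 highest genes passed 1.5-fold there, although all 20 had values above 0, from 0.14 for Rspo3 and Kif26a to 0.58 for Adamtsl1. Some of them, such as Adamtsl1, Gabra4 and Slc1a3, had too few UMIs there for the minimum. The counting interval of Adamtsl1 ran from 0.14 to 1.02, and those of Rspo3, Kif26a and others crossed 0. The 20 lowest also had too few UMIs there to be counted, with 11 past 1.5-fold when no minimum was set. Many of these highest and lowest genes had helped to build the clusters. The genes past the limit, named after their values were seen, were Nrp1 (106 CPM against 56.2, 0.91), Fgfr1 (62.3 against 39.9, 0.64) and Foxp1 (130 against 85.4, 0.60) as higher, and Syt6 (19.0 against 43.8, -1.20), Akap7 (-0.83), Vcan (-0.81), Alcam (-0.76), Ppp1r14c (-0.74), Prdm8 (-0.67), Cyr61 (-0.66), Tspan7 (-0.64), Adrb1 (-0.63), Gnal (-0.63) and Ptn (-0.63) as lower.

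Inside that cluster the left-out genes differed less than over all cells. With cells chosen by the other 3 genes, Fezf2 had 645 CPM against 559 in the rest of the cluster (log2 ratio 0.20, interval 0.13 to 0.28), Bcl11b 767 against 690 (0.15), Ldb2 141 against 114 (0.31) and Lmo1 143 against 114 (0.32). In the second cluster, where Fezf2 was lower, 11 chosen cells had 622 against 368 (0.76, 0.47 to 1.03). In the third cluster Lmo1 was at 0.05 with an interval from -0.37 to 0.44.

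The selected cells fell into sub-clusters of 182, 114 and 4 cells, again built without the 4 genes. The first was led by Rgs4, Crym, Hs3st4, Lpl and Tle4 and the second by Oma1, Pou3f3, Nkain3 and Bhlhe22, and these leading genes are a description of the split. Fezf2 had 776 CPM in the first and 639 in the second, Bcl11b 848 and 814, Ldb2 200 and 187, and Lmo1 185 and 268. Rprm had 807 CPM in the first and 360 in the second, and Tbr1 234 and 141.

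Median depths were alike at 16132 and 16043 UMIs. In the second sub-cluster Rnd2, a small GTPase of migrating neurons, was at 60.2 CPM against 14.4, and Bhlhe22, a bHLH factor, which led the split, at 159 against 57.1. Its Tle4 level, 13.4 CPM, lay below that of Reln-high cells. The third sub-cluster of 4 cells is too small to describe.

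**Figure D5:**
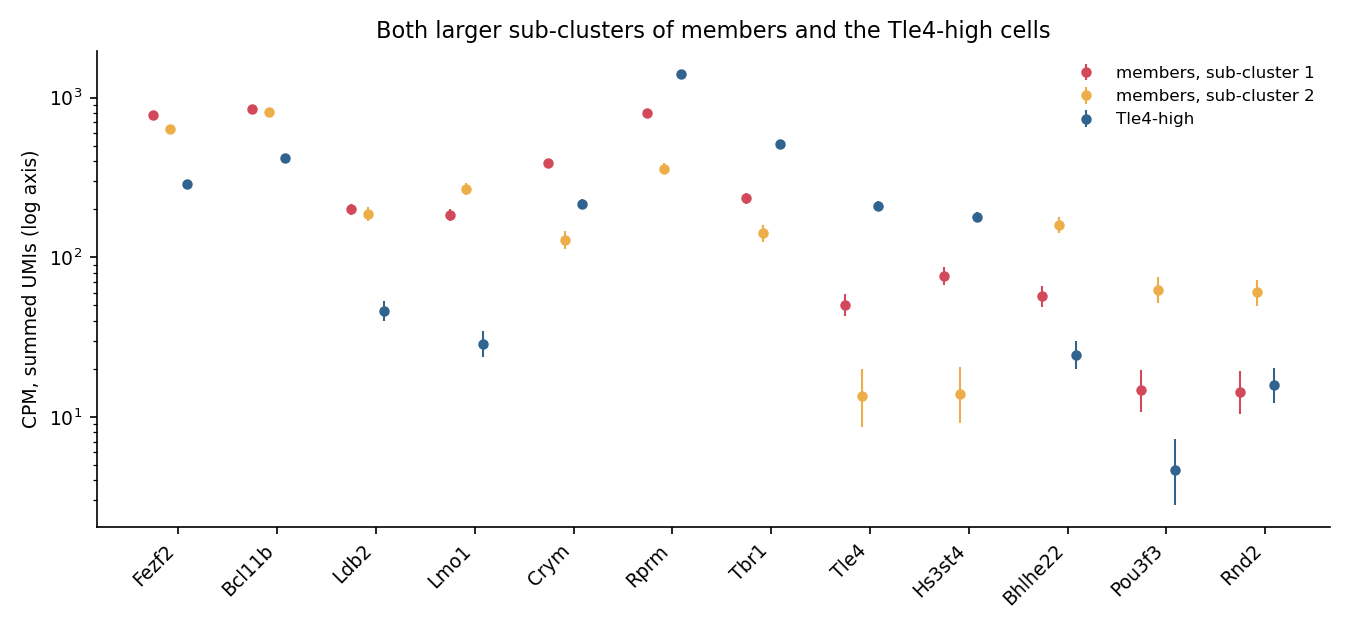
CPM on a log axis, with 95% counting intervals, of the 4 genes of the choice and 8 others in the sub-clusters of 182 and 114 selected cells and in Tle4-high cells; the sub-cluster of 4 cells is left out. The first sub-cluster has more Crym, Rprm, Tle4 and Hs3st4, the second more Bhlhe22, Pou3f3 and Rnd2, and Tle4 and Tbr1 were among the genes that chose the Tle4-high cells.

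The selected cells were set beside 293 Tle4-high cells, the highest of the remaining cells for Tle4, Foxp2, Tbr1 and Zfpm2. Only 12 selected cells would have been among the 300 eligible cells highest by that measure. Of 7997 genes 321 (4.01%) were at least 1.5-fold higher in the selected cells and 812 (10.2%) lower. Of the layer 6 genes outside that rule 8 of 10 were lower, with a median log2 ratio of -1.11, for instance Ntsr1 at 6.29 CPM against 39.5 (-2.65) and Rprm at 631 against 1405 (-1.15). Of 10 layer 5 genes 4 were higher and 2 lower, with a median of 0.44. Lix1 was at 1.04 and Crym at 0.41.

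The 10 highest genes of that comparison included POU factors and a semaphorin receptor. Pou3f1 had 102 UMIs in the selected and 2 in the Tle4-high cells, 20.7 CPM against 0.491 (log2 ratio 5.40, interval 3.51 to 8.46). Pou3f3 had 32.5 CPM against 4.66 (2.80) and Nrp1 128 against 20.4 (2.65). The corepressors Tle1 (28.8 against 5.89, 2.29) and Tle3 (25.2 against 4.91, 2.36), relatives of Tle4, were also in it, as were Fam210b (2.95), Itpr1 (2.63), Oma1 (2.12), Cyp7b1 (2.07) and Insm1 (2.05). These ratios describe the difference from Tle4-high cells alone. Against the 4 largest clusters Pou3f1 was at 0.31, Pou3f3 at 0.21, Nrp1 at 0.16 and Insm1 at 0.12, all within 1.5-fold. Oma1 was at 0.78 there, and no such value is given for the others. The 10 lowest were Npy (13.6 against 309, -4.51), Hs3st5 (-3.99), Grm3 (-3.96), Caln1 (-3.53), Kcnab1 (-3.45), Syndig1l (-3.43), Rgs16 (-3.24), Cdh10 (-3.22), the neurotrophin receptor Ngfr (4.87 against 37.8, -2.96) and Cryab (-2.92).

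Joint detection of gene pairs in single cells was read at equal depth, without a test. Tbr1 and Tle4 were both detected in 23.3% of the selected cells (exact interval 18.7 to 28.5%), in 43.6% of the remaining cells (41.4 to 45.8%) and in 34.7% of Reln-high cells. Crym and Tbr1 were found together in 50% and 47.8%, with 26.4% of Reln-high cells. Tle4 was lower in the selected cells too, as given above. The Tle4-high cells were taken from the remaining cells by measured genes, so the counts beside them describe the groups and do not test a difference in kind.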

How the data were processed

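The authors deposited unnormalised UMI counts for each gene in each cell, from Cell Ranger 2.0.0 on mm10. The submitters' processing notes also name Seurat 2.0. The matrix held 27998 genes and 3000 cells, all with the same barcode suffix, and no table of the authors' cell annotation was used. The matrix has 0 columns of other samples.

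Intervals were computed in scipy 1.17.1, clusters in scikit-learn 1.9.0 and scanpy 1.11.5, under Python 3.11.15. The cells, gene lists and comparison cells were chosen with earlier results of these data known. Doublets were not removed before the choice; Scrublet scores are given. UMIs of each group were summed per gene. CPM had exact Poisson intervals, ratios exact conditional binomial intervals and shares Clopper-Pearson intervals, all at 95%. PCR duplicates were collapsed by UMI, and cells are not replicates, so the intervals leave out the spread between embryos. Genes with at least 300 UMIs over the 2 groups (50 beside Tle4-high cells) and no cell with over 20% of them were compared, and a gene counted as higher or lower past 1.5-fold. Named genes were the 20 highest and 20 lowest ratios, the 10 highest and 10 lowest beside Tle4-high cells, and genes of the lists. Beside Tle4-high cells, list genes that chose them were left out. Some genes and a further group of cells are not reported here. Shares at equal depth used cells thinned to 10500 UMIs. Clusters came from K-means with 50 starts on 20 principal components of the 2000 most variable genes, and a cluster's leading genes had the highest folds (10 CPM added to each level) of those found in 50% or more of its cells. The ratio step and the choice of cells were tested on simulated data. Gene positions come from the GENCODE annotation of GRCm38, which held 27645 of the identifiers. Alternatives changed the filter, the weighting of cells, the number of cells chosen, doublets, depth, the Reln limit, the comparison cells and the clustering.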

Additional observations from a re-analysis of the deposited data

How the results depend on the processing

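No paired analysis was possible because all samples share 1 matrix that does not tie cells to samples, and no replicate could be left out for the same reason. The counts of 65 genes higher and 489 lower became 142 and 1063 with at least 100 UMIs per gene, and 29 and 145 with at least 1000, where the number of genes compared changed from 8028 to 10350 and 4556. They became 39 and 269 with the choice and the values taken from separate random portions of the UMIs, which leaves 6084 genes, and 35 genes were higher when cells were chosen without Lmo1. In settings chosen after seeing the data they were 40 and 310 against the 4 largest clusters alone, and 3 and 11 within the largest cluster, where fewer cells left 4587 genes. Of the genes left out of the choice, Fezf2 had log2 ratios of 0.66 with separate portions, 0.83 with a lower limit on total UMIs and 0.91 without the next 300 cells in rank, Bcl11b 0.57 with separate portions and 0.79 without the next 300 cells, and Ldb2 1.03 without the next 300 cells. All 4 kept their direction in the 11 settings run for them. The share in the commonest cluster was 27.3% with Leiden clusters and 83.0% for the 200 highest cells. Against the 4 largest clusters Emx2 turned to 0.0626 and Tshz2 to 0.62. Within the largest cluster Fst was at 0.56 and Snhg11 at 0.0774, with counting intervals that crossed 0 (-2.22 to 3.12 and -0.50 to 0.64). There, with no minimum on UMIs, 11 of the 20 lowest and 0 of the 20 highest genes were past 1.5-fold, and Npy was at -0.06. The cause of these changes was not tested. Over 275 genes of the text and the lists, 4402 of 4990 values kept within the counting interval of the value reported. Of the others, 204 were farther from 0. Another 380 moved toward 0 or, for genes within 1.5-fold in the main comparison, across it, and such crossings were not counted apart. The last 4, of genes past 1.5-fold in the main comparison, turned to the other side of 0. With 1 library, depth limits low genes such as Etv1, which could not be compared.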
